A study of Drosophila melanogaster with 13 samples.

Results

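The genomic contacts of Lola.N were mapped by Targeted DamID in ey16F10-GAL4 cells of the *Drosophila* third-instar (L3) brain, and all peaks of the 2 replicates, N1 and N2, are described here. N1 held 4676 peaks and N2 held 4544, which together are the 9220 peaks deposited for the series. The 13 samples of the series also comprise 9 RNA-seq libraries of clones from the optic lobe of wandering L3 larvae, 3 each of the genotypes WT, lola[E76] and nerfin-1[159], and 2 samples of Dam alone, which were not analysed here. In the labels, the Lola.N samples have the genotype Lola.N TaDa ey16F10-GAL4 and the tissue L3 brain, while the series design places the cells in the optic lobe. The driver ey16F10-GAL4 therefore defines the cells in the peak files, whereas the RNA came from sorted clones pooled over several days of sorting, so the cells of the assays were not the same. The peak files hold no expression values, and the identity of the ey16F10-GAL4 cells could not be checked against markers.

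In DamID, a DNA adenine methyltransferase is fused to a chromatin protein and methylates the GATC sites around its contacts, and methylation by the free enzyme serves as the reference for accessible DNA. Targeted DamID expresses the fusion at a low level under GAL4 control, so that contacts can be read in a chosen cell type without sorting. The gene lola encodes many isoforms that share a BTB domain and differ in their zinc fingers. Lola.N is the isoform known for keeping optic lobe neurons differentiated, so that they do not revert to dividing neuroblasts, the stem cells of the nervous system. Eyeless, whose regulatory DNA names the driver, is one of the temporal transcription factors that medulla neuroblasts express in sequence.

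Peaks of N1 had a median width of 809 bases and those of N2 832.5 bases. Each peak carries the authors' score, on a scale not given in the sources used here. Scores ran from 0.48 to 7.8 with a median of 2.45 in N1, and from 0.55 to 6.21 with a median of 1.86 in N2. The regions where a peak of N1 and a peak of N2 overlapped by at least 1 base are called shared intervals below. There were 3342, with a median width of 643 bases, and they covered 2.79 Mb, or 2.04% of the sequence up to the last peak of each chromosome. Of these, 55 were a single base wide and 110 were at most 100 bases wide.

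Lola.N peaks lay on every chromosome, and X was the most densely occupied. The X chromosome held 738 shared intervals, or 31.4 per Mb. The 4 large autosomal arms ranged from 22.2 per Mb on 3R to 25.2 per Mb on 3L, with 22.9 on 2L and 24.4 on 2R. The small chromosome 4 had 27 shared intervals, or 20.5 per Mb. The Y chromosome, which carries few genes and much repeated sequence, had 9, or 2.57 per Mb. The order of X above the large autosomal arms was the same in each replicate, since X had 42.8 peaks per Mb in N1 and 41.9 in N2, while the large autosomal arms had 31.4 to 34.5 in N1 and 30.3 to 33.8 in N2. Gene density did not follow the same order. X had 115 annotated genes per Mb against 125 to 150 on the large autosomal arms, so that shared intervals per 100 genes were 27.3 on X, 23.7 on chromosome 4, 20.2 on 3L and 15.3 to 16.9 on 2L, 2R and 3R. Scores differed less between the arms, with medians in N1 of 2.52 on X and on 3L and of 2.31 to 2.47 on 2L, 2R and 3R.

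**Figure D1:**
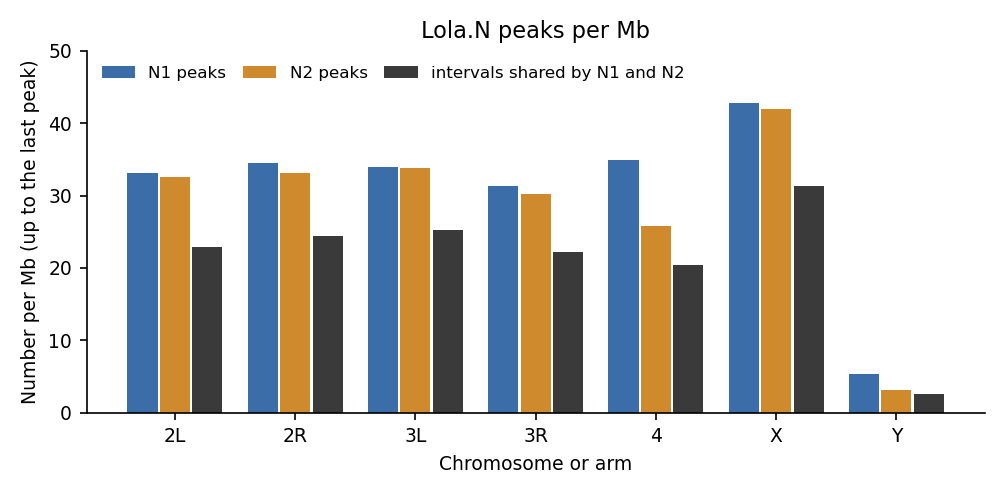
Number of Lola.N peaks of N1 and N2 and of shared intervals per Mb (vertical axis), by chromosome or arm (horizontal axis), with the length taken up to the last peak; each bar is 1 count with no error. X stands highest in all 3 series, at 42.8, 41.9 and 31.4 per Mb, and Y lowest.

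Within arms, the intervals thinned out towards the centromere. The 3 Mb nearest the centromere held 5.0 shared intervals per Mb on 3L and on 3R, against 25.6 and 23.7 per Mb on the rest of these arms. On 2R the values were 8.0 and 25.8 per Mb, on 2L 13.7 and 23.4, and on X 13.3 and 33.4. Annotated genes were also sparse in these regions on 2R, 3L and 3R, with 2.67 to 10.3 genes per Mb against 138 to 163 on the rest of the arms, while 2L had 134 against 151 and X 67.7 against 122. The part of gene density in the counts was not tested. In windows of 1 Mb, the shared intervals ranged from 1 to 77 with a median of 24.5 over 134 complete windows. The peak counts of N1 and N2 followed each other over these windows with a Pearson correlation of 0.959 and a Spearman correlation of 0.959, given as a description of windows that share a genome and its GATC sites. The first Mb of 3L held the most, with 77, and the next were X:7000001-8000000 with 58, X:1000001-2000000 with 56, X:2000001-3000000 with 52 and 2R:10000001-11000000 with 49.

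Most of the peaks were found in both replicates, and the strongest nearly always were. Of the N1 peaks, 3308 overlapped an N2 peak, which is 70.7% (exact 95% binomial interval 69.4 to 72.0%). Of the N2 peaks, 3312 overlapped an N1 peak, which is 72.9% (71.6 to 74.2%). These intervals treat peaks as independent and cover counting error only. The share rose with the score. By quartile of score, from lowest to highest, it was 42.8%, 63.8%, 81.9% and 94.5% in N1, and in N2 it was 45.2%, 65.3%, 85.7% and 95.3%. Unmatched peaks had median scores of 1.78 in N1 and 1.285 in N2, against 2.80 and 2.14 for matched peaks. Their widths did not differ as much, with medians of 844.5 and 865.5 bases against 792 and 822.5 for matched peaks.

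Scores of matched peaks ranked alike in the replicates but were higher in N1. Each peak was paired with the peak it overlapped most where this held from both sides, which gave 3279 pairs. Across these pairs the scores correlated with a Pearson coefficient of 0.851 and a Spearman coefficient of 0.820, as a description across peaks, which are not replicates. The N1 score exceeded the N2 score by 0.695 ± 0.607 (SD over 3279 pairs). N1 was the higher in 2875 pairs, or 87.7%, N2 in 392, and 12 were equal. By chromosome, the Spearman coefficient ranged from 0.787 on Y, with 9 pairs, to 0.891 on chromosome 4, with 26 pairs, and was 0.806 to 0.832 on the other 5. Of the 100 highest peaks of N1, 62 overlapped one of the 100 highest of N2, and 99 overlapped some N2 peak. Among the highest 500 of each list 374 were in common, and among the highest 1000 there were 765. Peaks are made of GATC fragments, and their borders often coincided: 2491 of the 3279 pairs had the same start or the same end, and 1166, or 35.6%, had both.

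**Figure D2:**
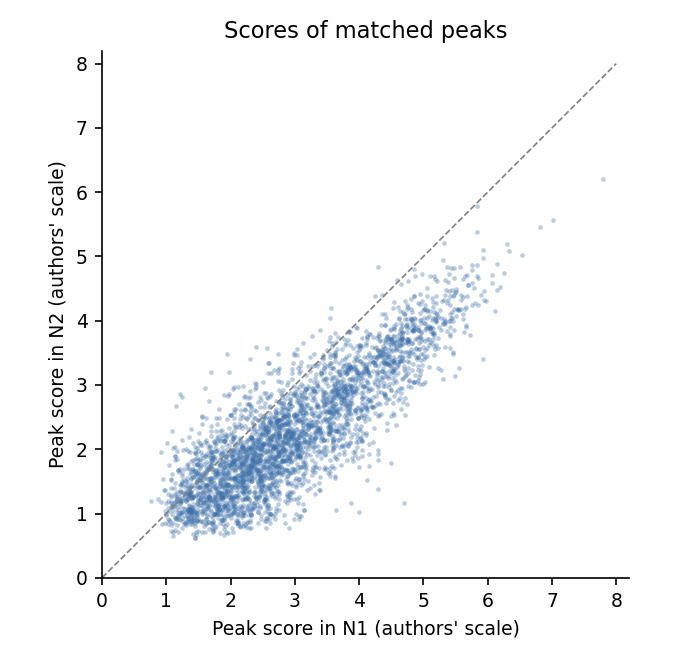
Score of each matched peak in N1 (horizontal axis) and in N2 (vertical axis), on the authors' scale, for the 3279 reciprocal pairs; the dashed line marks equal scores. Most points, 2875 of 3279, lie below the line, and the scores rise together, with a Spearman coefficient of 0.820.

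The intervals were unevenly spaced. Neighbouring shared intervals were a median of 13.4 kb apart. Of 3335 gaps, 969, or 29.1%, were at most 5 kb, and 362, or 10.9%, were over 100 kb, up to 1121 kb on 3R. Of 1368 windows of 100 kb, 26.9% held no shared interval, and the 69 windows with the most held 21.5% of all intervals. Neighbours also resembled each other in score over short distances. Among neighbours that stemmed from different peaks in each replicate, the Spearman correlation of the mean score was 0.586 over the 166 pairs at most 1 kb apart and 0.21 over the 739 pairs at 1 to 5 kb. It was 0.033 over 1610 pairs at 5 to 50 kb. Pairs close together can share a GATC fragment border or a smoothed signal, and the part of this in the correlation was not tested.

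**Figure D3:**
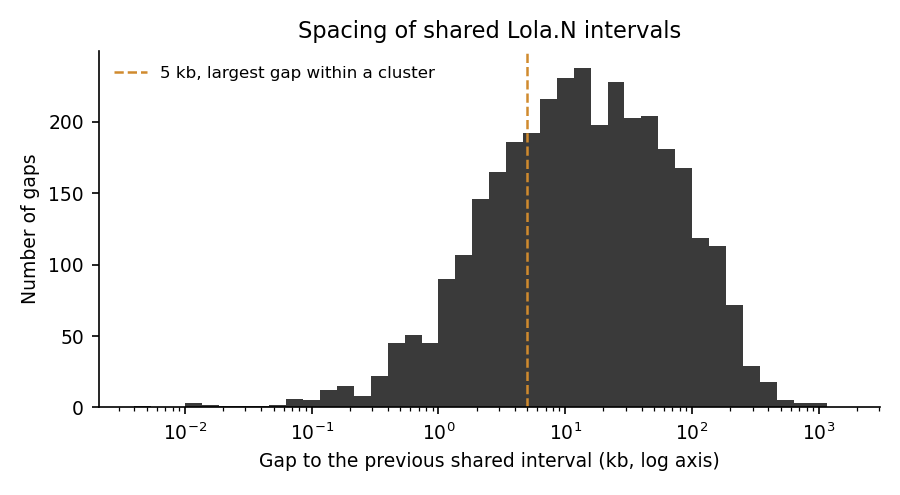
Number of gaps (vertical axis) by size of the gap between neighbouring shared intervals in kb (horizontal log axis); the dashed line marks 5 kb, the largest gap allowed within a cluster. The sizes spread around a median of 13.4 kb, with 29.1% of the gaps to the left of the line.

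When intervals at most 5 kb apart were joined, 2373 clusters resulted. Of the shared intervals, 1779, or 53.2%, stood alone. At the other end, 40 clusters held at least 5 intervals each and 264 intervals in all, or 7.90%. These 264 had a median of the mean score of both replicates of 3.285, against 2.325 for the intervals that stood alone. The largest clusters held 10 intervals, and there were 3 of them. One ran from the very end of the arm, 3L:15-18773, and touched no annotated gene. Another, X:7291164-7325253, lay over brk, which encodes a repressor of Dpp target genes, and over Atg5, Dok and CG1677. The remaining one, 3L:17991678-18019434, lay within Eip75B, an ecdysone-induced nuclear receptor.

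The next clusters lay over genes of varied function, and those named here are a selection made after their genes were seen. The cluster at 3L:729100-749070 had 9 intervals over emc, an inhibitor of bHLH proneural factors, and hng3. Clusters of 8 lay at 2R:8230758-8247198 beside dpn, a bHLH repressor that maintains neuroblasts, and at 2L:15424450-15446531 beside wor, a Snail-family factor of neuroblasts. Another cluster of 8, at 2R:10535688-10555991, lay over one end of lola itself and the neighbouring lncRNA:acal, and its mean score of 4.65 was the highest of the 10 largest clusters. The coding sequence of Lola.N is present in the fusion transgene as well as in lola, and the peak files do not tell these copies apart. Clusters of 8 also lay over gcm, the glial fate switch, and over Bx, which encodes a LIM-only protein. Clusters of 7 lay over Syp and Imp, which encode RNA-binding proteins that time neuroblast competence, over slp1, over tap, over jigr1 and mir-92a, and over CAP and Syb, while further clusters of 8 lay over rux and MCTS1 and over lncRNA:CR45568. Clusters of 6 lay over Hsp70Ba, a heat shock gene, over neur, a ubiquitin ligase of Notch signalling, and over the Notch-responsive genes E(spl)mgamma-HLH, E(spl)mdelta-HLH and E(spl)mbeta-HLH.

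Seen in fixed windows of 100 kb, the densest loci were 3R:29200001-29300000, which includes stg, the Cdc25 phosphatase that drives mitosis, and 3L:700001-800000 with emc, at 18 shared intervals each. The window 2L:15400001-15500000, which includes wor and its paralog sna, had 17. Next came X:2300001-2400000, which includes Raf and Ilp6, with 16, and 3L:1-100000, which includes Lsp1gamma and mthl8, with 15. The window X:400001-500000, which includes the proneural gene l(1)sc and the neuroblast factor ase, had 14. So did X:7200001-7300000, which includes Cph, and 2L:3800001-3900000, which includes slp1. All of these windows stood far above the median of 2 per window.

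The highest scores lay elsewhere in part. The top interval, 3R:19743741-19744560, scored 7.80 in N1 and 6.21 in N2 and lay at an end of GluClalpha, a glutamate-gated chloride channel. The next, 2R:10548133-10548920 at lncRNA:acal, scored 7.02 and 5.57, and X:525519-526218 in arg scored 6.81 and 5.46. The interval 3L:4227007-4227508 at an end of ImpL2, a secreted binder of insulin-like peptides, scored 5.83 and 5.79, so here the replicates were nearly equal. In caps, a cell-surface protein of photoreceptor targeting, 3L:13254602-13255508 scored 6.53 and 5.02. The interval 2L:8817447-8818739 scored 6.30 and 5.19 between genes, 6906 bases from SoxN, a Sox factor of the nervous system. Intervals in or at Polr2E, Vha68-2 and neur completed the 10 highest together with X:7266061-7266566 in lncRNA:CR44357.

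Of the shared intervals, 2815, or 84.2%, lay within 1 kb of an annotated gene, and 1276 of these touched more than 1 gene. Gene ends held a larger share of the intervals than of the sequence. Intervals within 1 kb of a gene start or end, which the reference does not tell apart, made up 50.1% of all intervals, while such regions made up 28.0% of the sequence. Gene bodies away from the ends held 34.1% of the intervals and 48.1% of the sequence, and regions between genes held 15.8% and 23.9%. When each interval was placed by its middle base, so that its width gave it no advantage, the shares were 43.4%, 39.0% and 17.6%. Median scores hardly differed between the places, at 2.44 at gene ends, 2.53 in bodies and 2.42 between genes.

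With 1 kb added on either side of each gene, 3439 of 17807 genes, or 19.3%, carried at least 1 shared interval. Most of these, 2722, carried 1 interval, 504 carried 2, 164 carried 3 or 4, and 49 carried 5 or more. The genes with the most were long and often nested. The non-coding gene lncRNA:CR44357 spans 239 kb of X and held 26 intervals, of which many also counted for Cph, with 15, and CG1677, with 12. The non-coding gene lncRNA:CR32773 held 20 and CG32816 held 16. Among genes with a known role, Eip75B and jing, a zinc finger factor, held 14 each, CenG1A held 12, and E2f1, the activating E2F of the cell cycle, held 9. The 9 intervals of br, an ecdysone-induced BTB zinc finger factor, all lay within Mur2B as well, which held 13.

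Per 10 kb of body, among genes of at least 10 kb, Cad74A led with 3.40 shared intervals, followed by ImpL2 with 3.29 and neur with 3.14. The 4 intervals of Cad74A and the 4 of ImpL2 each include 1 of a single base, 3L:17371247 and 3L:4229593. The lead of these genes over neur rests on these single bases. The 6 intervals of neur scored from 3.22 to 5.92 in N1 and from 2.64 to 5.10 in N2. The others of the 10 densest genes were Nrx-IV, jigr1, hng3, nemy, aop, HmgD and CG32813, down to 2.51 per 10 kb. Of the 6 intervals of aop, 1 was also a single base wide.

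**Figure D4:**
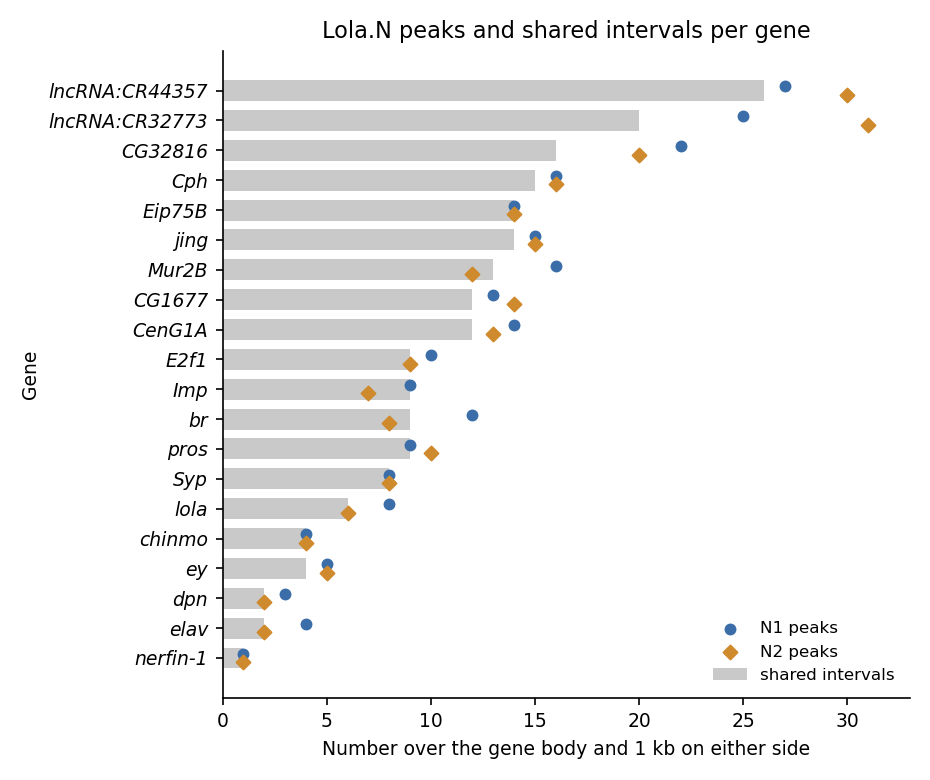
Number of shared intervals (bars) and of N1 and N2 peaks (points) over the body and 1 kb on either side (horizontal axis), for the 12 genes with the most shared intervals and for 9 genes of the study's question, pros being in both groups. The values run from 26 shared intervals at lncRNA:CR44357 to 1 at nerfin-1.

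All 9 genes picked for their place in the study's question carried a shared interval, beside 19.3% of all and 28.3% of tested genes. They were picked with earlier results of these data known. Several were long, such as pros with 79.1 kb, beside a median of 1.695 kb over all genes. The BTB zinc finger gene chinmo, which promotes growth of immature neural cells, held 4 shared intervals. Their scores in N1 and N2 were 2.04 and 2.12 at 2L:1648164-1650638, 3.66 and 2.80 at 2L:1666835-1668152, 1.92 and 1.62 at 2L:1687119-1688981, and 1.74 and 1.00 at 2L:1705428-1705710. Apart from the second of these, they lay below the median of their replicate in N1, and in N2 the first and second lay above it.

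The 9 intervals of Imp were tightly grouped, with 7 of them in 9.42 kb. The highest in N1, X:10807329-10808126, scored 4.66 there and 3.73 in N2, and the highest by the mean of both, X:10812074-10812142, scored 4.62 and 3.83. Imp had 9 peaks in N1 and 7 in N2, and a single N2 peak of score 3.83 met 3 of the N1 peaks. Syp, whose protein opposes Imp in neuroblasts, held 8 intervals, from 2.96 to 5.94 in N1 and from 2.32 to 4.39 in N2. The highest in N1 was 3R:20779727-20780167, with 5.94 and 4.33.

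The homeodomain gene pros, which ends neuroblast self-renewal in ganglion mother cells, held 9 intervals, and 8 of them scored above the N1 median of 2.45. Its strongest, 3R:11350203-11351053, scored 5.69 and 4.55, and also lay within 1 kb of KP78a and KP78b. The gene lola held 6 intervals, up to 5.69 and 4.55 at 2R:10537287-10538983. The neuroblast gene dpn held 2, of 4.76 and 3.64 and of 5.75 and 4.32. The pan-neuronal gene elav also held 2, of 2.85 and 1.97 and of 4.05 and 3.60, both of which also counted for arg.

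The zinc finger gene nerfin-1, which like lola maintains neuronal differentiation, held 1, at 3L:913228-914086, of 3.65 and 2.28. It also lay within 1 kb of Glut1. On chromosome 4, ey itself held 4 of the 27 shared intervals of that chromosome, from 2.87 to 5.01 in N1 and from 2.26 to 3.41 in N2.

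Gene lists differed widely in how many members carried a shared interval, against 19.3% of all genes. The lists were drawn from general knowledge, but with earlier results of these data known. List members were longer than the median gene, so the number per 100 kb is given too, which was 3.36 over all genes with their flanks. In the neuroblast identity list all 10 genes carried an interval, 27 in total or 12.9 per 100 kb, and grh, a transcription factor of late neuroblasts, carried 7. All 8 genes of ganglion mother cells and neuronal commitment did, with 25 or 11.4 per 100 kb. Of 12 medulla temporal factors matched, 10 did, with 26 or 8.21 per 100 kb. In that list hth, the first factor of the series, held 6, while slp2 and D held none. The 16 cell cycle genes had the highest density, 18.3 per 100 kb, and 11 of them carried an interval, among them E2f1 with 9, CycE with 3 and Cdk4 with 3. These genes were short, with a median of 3.62 kb. Gene ends and flanks, which hold more intervals per length, weigh more in lists of short genes, so densities do not fully remove length.

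Regulatory lists followed. Of 16 BTB zinc finger genes 12 carried an interval, 47 in all or 5.98 per 100 kb, with br at 9, lov at 8 and ttk at 5, while bab2, lolal, Cp190 and rib had none. All 6 RNA-binding timers did, with 22 or 5.59 per 100 kb. Of 12 Notch pathway genes 9 did, with 23 or 7.63 per 100 kb, including N with 5 and fng with 3, while Su(H), H and Nct had none. Ecdysone response genes had 11 of 13 and 4.95 per 100 kb, with Eip75B at 14. Wnt signalling had 11 of 16 and 5.07, with fz2, a Wnt receptor, at 5. Medulla neuron identity factors had 13 of 18 and 4.62 per 100 kb, with svp, a nuclear receptor, at 5.

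Genes of neuronal function, in lists with median lengths of 27.7 to 49.1 kb, carried fewer per length. Axon guidance and adhesion genes had 12 of 20 members with an interval but only 1.93 per 100 kb, with Dscam1 at 5. Synaptic vesicle release genes had 7 of 13 and 1.62 per 100 kb, including nSyb with 2, while Syt1, Syx1A and Syn had none. Ion channels had 5 of 13 and 0.874 per 100 kb, with none at Shal, Shab, Shaw, slo and eag. Hox genes, the patterning genes of the body axis, had 4 of 8 and 1.13 per 100 kb, and none of them passed the filter on low RNA counts. Of 16 odorant and gustatory receptor genes only Gr66a did, with 1 interval. Of 16 ribosomal protein genes, which are short, 4 did, and the 5 intervals came to 7.93 per 100 kb.

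The genes with peaks were then looked up in the RNA libraries of the clones, which were counted by QuantSeq, which sequences tags from transcript 3′ ends. Libraries held 3465601 to 5200223 counts. Values below are CPM, counts scaled to library size and by TMM, and differences are log2 differences from WT with their standard error. The mutated genes were checked first. The gene lola stood at 1942, 1752 and 1596 CPM in the WT libraries and at 2136, 2087 and 1729 CPM in lola[E76], so the groups overlapped. The tags come from the 3′ end and the labels name no lesion for lola[E76], so these values do not check the genotype. The gene nerfin-1 stood at 313, 263 and 275 CPM in WT and at 18.4, 6.77 and 2.13 CPM in nerfin-1[159]. In bulk samples, fewer cells of a type and less RNA per cell cannot be told apart.

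Several marker sums, though not all, shifted between the genotypes. The 4 neuroblast markers summed to 48.3 to 136 CPM in WT, and to 226 to 297 CPM in lola[E76] and 364 to 421 CPM in nerfin-1[159]. The 4 neuron markers summed to 3143 to 3801 CPM and 2465 to 2884 CPM. The 5 muscle markers, of which Mhc was not tested for low counts, summed to 2.16 to 7.29 CPM in WT and 96.1 to 200 CPM in lola[E76]. In nerfin-1[159] they summed to 2.83 to 6.66 CPM. The 5 haemocyte markers, of which Hml, srp and NimC1 were not tested, gave sums of 2.97 to 11.7 CPM for the WT libraries, 23.7 to 41.4 CPM for lola[E76] and 189 to 267 CPM for nerfin-1[159]. The 5 fat body markers, of which Fbp1, Lsp1alpha and Lsp2 were not tested, gave 7.29 to 13.1, 23.9 to 39.9 and 192 to 270.0 CPM in the same order. Both sums include Col4a1, which the fat body list holds under its other name Cg25C. They are therefore not independent readings of separate cell types. The part of these cells in the differences below was not tested.

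Of 7451 genes tested, 484, or 6.50%, differed between lola[E76] and WT at an adjusted p below 0.05 (edgeR's quasi-likelihood test, two-sided, Benjamini-Hochberg adjustment), with 267, or 3.58%, higher and 217, or 2.91%, lower in lola[E76]. Of the tested genes 7442 were in the reference table, and 2106 of them, or 28.3%, carried a shared Lola.N interval. Among the 481 called genes of the table, 232, or 48.2%, carried one (exact 95% binomial interval 43.7 to 52.8%). The share was 51.5% (45.3 to 57.7%) of the 264 genes higher in lola[E76] and 44.2% (37.5 to 51.1%) of the 217 lower ones. Genes with Lola.N peaks therefore stood on both sides of the comparison.

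The share of called genes was greater at genes with more intervals. Of genes without a shared interval, 2.40% were higher and 2.27% lower in lola[E76]. Of genes with 1 interval, 5.93% were higher and 3.70% lower, and of the 49 genes with 5 or more, 18.4% were higher and 14.3% lower. Length and RNA level moved with the number of intervals: the median length of the tested genes was 2.73 kb without an interval and 64.0 kb with 5 or more, and their median WT level was 16.4 and 198 CPM. When the tested genes were split into tertiles of length, the shares called higher with and without an interval were 5.25% against 1.95% in the shortest, 5.66% against 1.61% in the middle and 7.51% against 4.02% in the longest. For genes called lower these shares were 1.89% against 0.898%, 3.07% against 2.15% and 6.72% against 4.29%. In each tertile of WT level, too, the share called higher and the share called lower in lola[E76] were both larger among genes with an interval, and these differences were not tested.

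Higher and lower genes were spread differently over the strength and position of the intervals, given here as a description without a test. Genes were ranked by their highest-scoring interval. In the lowest tertile 3.85% were higher and 4.56% lower in lola[E76], in the middle 6.13% and 5.98%, and in the highest 9.40% and 3.13%. Median gene length also rose over these tertiles, from 3.46 to 5.11 and 9.97 kb. Median WT level rose from 20.9 to 22.3 and 32.1 CPM, and the part of length and level in these shares was not tested. Of 1586 genes with an interval at a gene end, 6.43% were higher and 3.47% lower. Of 520 genes with intervals inside the body only, 6.54% were higher and 7.88% lower, and these genes were longer, with a median of 23.0 kb against 3.44 kb.

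**Figure D5:**
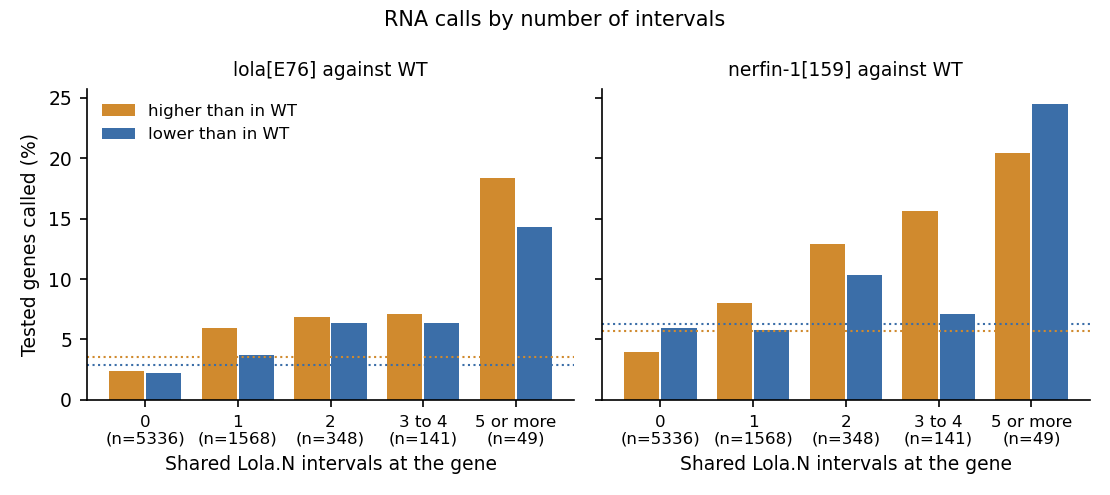
Share of tested genes called higher or lower than in WT (vertical axis, percent) by number of shared Lola.N intervals at the gene (horizontal axis, with the number of genes), for lola[E76] and nerfin-1[159]; both comparisons use the same WT libraries, and dotted lines mark the share over all tested genes. In lola[E76] the bars rise from 2.40% and 2.27% without an interval to 18.4% and 14.3% with 5 or more.

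Among the genes with the most intervals that were higher in lola[E76], Imp changed by far the most. It stood at 121, 231 and 202 CPM in WT and at 2563, 2953 and 1893 CPM in lola[E76], which do not overlap. The log2 difference was 3.74 ± 0.26 (edgeR adjusted p = 4.1e-08). The BTB zinc finger gene ttk, a repressor of neural genes with 5 intervals, stood at 21.6, 15.4 and 27.5 CPM in WT and at 153, 152 and 161 CPM in lola[E76]. Its difference was 2.85 ± 0.25 (edgeR adjusted p = 7.7e-07). Both sets of libraries lay far apart for ttk, with hardly any spread in the mutant.

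Smaller rises were seen at N, the Notch receptor, with 5 intervals, at hth with 6, at kirre with 9 and at fz2 with 5. N stood at 151, 198 and 245 CPM in WT and at 323, 403 and 369 CPM in lola[E76] (log2 difference 0.88 ± 0.16, edgeR adjusted p = 0.0015). The gene kirre, which encodes an adhesion molecule and whose interval X:3134775-3136957 it shares with N, rose by 1.01 ± 0.17 (edgeR adjusted p = 0.00066). For hth the difference was 0.80 ± 0.12 and for fz2 0.59 ± 0.13 (edgeR adjusted p = 0.00030 and 0.0066). Cdk4, a cell cycle kinase with 3 intervals of 3.80 to 5.84 in N1, stood at 4.05, 4.58 and 6.06 CPM in WT and at 29.0, 24.99 and 33.5 CPM. The difference was 2.56 ± 0.40 (edgeR adjusted p = 0.00037). In WT these were 15 to 32 counts, and reads of Cdk4 could not be told apart from those of the overlapping asRNA:CR44375, since the strand setting of the counting is not stated.

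In the neuroblast identity list, 3 of 10 genes were called, all higher in lola[E76], beside 3.58% of all tested genes. They were wor, with a log2 difference of 1.89 ± 0.30, the proneural gene ase, with 1.45 ± 0.30, and mira, which encodes the adaptor that segregates fate determinants, with 1.23 ± 0.32 (edgeR adjusted p = 0.00040, 0.0048 and 0.022). The call of mira was lost without lola[E76] replicate 2 or 3 (edgeR adjusted p = 0.059 and 0.055) and by the DESeq2 test (adjusted p = 0.116). The list's median difference was 0.88, beside 0.00 over all tested genes. Of the RNA-binding timers, lin-28 was also called. It had 1 interval, no counts in any WT library, where 3 counts would be 0.577 to 0.799 CPM, and 9.62 ± 6.98 CPM (SD, n = 3) in lola[E76], and its call was lost without lola[E76] replicate 1 (edgeR adjusted p = 0.055). Of the cell cycle list, CycB, a mitotic cyclin with 1 interval, was called along with Cdk4, at 0.83 ± 0.22 (edgeR adjusted p = 0.029), and lost its call without any one WT library or either of lola[E76] replicates 1 and 2, with edgeR adjusted p-values of up to 0.114.

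Among genes with intervals that were lower in lola[E76], mamo, a BTB zinc finger gene with 5 intervals, stood at 4895, 4947 and 3806 CPM in WT and at 2840, 3240 and 2589 CPM in the mutant. The groups did not overlap, and the log2 difference was -0.65 ± 0.11 (edgeR adjusted p = 0.0010). The junction protein gene pyd, with 7 intervals, differed by -0.64 ± 0.13, CenG1A, with 12, by -0.84 ± 0.19, and apt, a transcription factor gene with 5, by -0.86 ± 0.19 (edgeR adjusted p = 0.0048, 0.00999 and 0.0087). The difference at jing, -0.55 ± 0.16 (edgeR adjusted p = 0.041), lost its call without either of WT replicates 1 and 2 or any lola[E76] library, with edgeR adjusted p-values of up to 0.198. The gene nerfin-1, with 1 interval, stood at 123, 152 and 143 CPM in lola[E76], below its WT libraries. The difference was -1.03 ± 0.28 (edgeR adjusted p = 0.034). This call was lost by the DESeq2 test, with replicate as a block and without any 1 library of WT or lola[E76].

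Of the lists of neuronal function, synaptic vesicle release had 2 of 13 tested members called lower and none higher, and ion channels 3 of 12 lower and 1 higher, beside 2.91% lower and 3.58% higher of all tested genes. Most members of both lists, such as Syt1, brp, cpx and para, were not called. The vesicle fusion gene nSyb, with 2 intervals, stood at 452, 399 and 394 CPM in WT and at 13.3, 17.4 and 59.6 CPM in lola[E76]. The difference was -3.78 ± 0.35 (edgeR adjusted p = 1.7e-06). The gene qvr, whose product regulates Shaker channels, had 1 interval and differed as strongly. It stood at 81.0, 102 and 99.3 CPM in WT and at 6.29, 2.16 and 11.4 CPM in lola[E76], a difference of -3.83 ± 0.37 (edgeR adjusted p = 2.3e-06). Medulla neuron identity factors had 5 members lower and 1 higher of 16 tested, beside the same 2.91% and 3.58% of all tested genes. Ets65A and toy, with 2 intervals each, and Lim1 and dac, with 1 each, were lower and so was kn, which had none. Temporal factors had 4 lower, namely hbn, scro, tll and slp2, of which slp2 had no interval, and 1 higher, hth, of 12 tested, against those same background shares. The calls of tll and slp2 were lost without either of WT replicates 1 and 3 or of lola[E76] replicates 1 and 3, that of slp2 also without WT replicate 2 or any nerfin-1[159] library, with edgeR adjusted p-values of up to 0.151 and 0.176.

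Some genes without a shared interval were called too. Shab, a potassium channel gene with no shared interval, stood at 12.4, 11.9 and 23.7 CPM in WT and at 80.1, 86.8 and 76.6 CPM in lola[E76], a difference of 2.33 ± 0.28 (edgeR adjusted p = 2.3e-05). The gene kn, which encodes a COE-family factor, differed by -1.36 ± 0.20 (edgeR adjusted p = 0.00019).

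Several genes with many intervals were not called. Eip75B, with 14 intervals, stood at 1160, 1047 and 941 CPM in WT and at 1019, 1053 and 1067 CPM in lola[E76], a difference of 0.00 ± 0.11 (edgeR adjusted p = 0.99). Syp, with 8, differed by -0.04 ± 0.14, chinmo, with 4, by 0.25 ± 0.12, br, with 9, by -0.14 ± 0.11, and E2f1, with 9, by 0.15 ± 0.11 (edgeR adjusted p = 0.93, 0.26, 0.59 and 0.51). The gene pros differed by -0.50 ± 0.16 (edgeR adjusted p = 0.064), with overlapping groups, and passed the threshold without WT replicate 3 or without lola[E76] replicate 1. At ey the difference was -0.24 ± 0.26 (edgeR adjusted p = 0.71). By contrast GluClalpha, which lies at the highest-scored interval, was called higher, by 0.84 ± 0.15 (edgeR adjusted p = 0.0015). So was Mur2B, whose 13 intervals include all 9 of br. Its log2 difference was 1.75 ± 0.36 (edgeR adjusted p = 0.0042), and its call was kept under all 13 RNA alternatives. Which of these genes the intervals they share belong to was not tested.

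The counts of WT are labelled FRT42D, those of lola[E76] Lola42D and those of nerfin-1[159] Nerfin2A. Whether WT shares the genetic background of nerfin-1[159] is not stated, and the part of background in that comparison was not tested. In nerfin-1[159], which was compared with the same WT libraries, 889 of 7451 genes, or 11.9%, were called by the same edgeR test, with 5.66% higher and 6.27% lower. Of the 883 in the reference table, 39.9% carried a shared Lola.N interval (exact 95% binomial interval 36.6 to 43.2%), made up of 48.8% of the higher and 31.9% of the lower genes, beside 28.3% of all tested genes. This binomial interval, too, treats genes as independent, and the difference from 28.3% was not tested. For genes with Lola.N peaks, the log2 differences in lola[E76] and nerfin-1[159] were 3.74 and 2.57 at Imp, 1.89 and 2.55 at wor, and 0.88 and 1.10 at N. They were 2.85 and 0.56 at ttk, where the first alone was called and the difference between the mutants was not tested, and had opposite signs at hth, with 0.80 and -0.88, at kirre, with 1.01 and -0.73, and at fz2, with 0.59 and -1.12, where each was called. In tertiles of length, from short to long, 2.73%, 2.59% and 11.9% of the genes with an interval were called lower in nerfin-1[159], and 2.39%, 2.42% and 15.3% of those without, differences that were not tested.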

How the data were processed

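Per the labels' protocols, DamID fragments were cut with DpnI and DpnII and sequenced, and RNA libraries were made with QuantSeq from sorted clones. The authors deposited 1 peak list per replicate, with a score per peak, called on GATC fragments against Dam alone, with a false discovery rate of 0.01 in the names of the files. The score's scale, the peak caller and the genome build are unknown, not given in the sources used here. Raw counts were deposited by the authors too, per gene for 9 RNA libraries, for which the submitters' processing notes list Subread, featureCounts and limma but no versions.

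From these, peaks of N1 and N2 were intersected, matched by their longest overlap, joined into clusters and assigned to genes of the RefSeq Release 6 table, which carries no strand, with 1 kb on either side. The last peaks of the chromosomes lay within 160 kb of the last genes of that table, and coordinates are printed as deposited. No genome sequence was used. Counts were filtered by filterByExpr and tested in 1 quasi-likelihood fit over 9 libraries (edgeR 4.0.16 and R 4.3.3, TMM, two-sided, adjusted p of 0.05), with DESeq2 1.42.0 as an alternative. A sum of 3 counts was 0.577 to 0.866 CPM. Within a genotype the lowest chi-square between libraries was 10.3 per degree of freedom, so none was counted as a duplicate. Whether libraries of a genotype stem from separate animals is not stated beyond the pooling of sorts, so p-values cover only how far these libraries vary, which may be technical. Overlap steps and the fit were tested on simulated data. Peak steps and figures were run in Python 3.11.15 (pandas 2.3.3, numpy 2.4.6, scipy 1.17.1, matplotlib 3.10.9).

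Of 216 entries in 16 gene lists, 210 matched by symbol and 3 by synonym. Members, lists and the rule for named genes were chosen with earlier results of these data known. The rule took 9 genes of the study's question, the 12 genes with the most shared intervals, the 10 densest genes of at least 10 kb, the genes of the 10 highest intervals and of the 10 largest clusters, up to 4 list members with most and with no intervals, and up to 12 called genes each way. Other genes were named as the called members of a list or as members of a locus, after their values were seen. Alternatives covered stricter peaks, overlap, gap and window sizes, scaling, filter, DESeq2, the replicate block and each replicate left out.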

Additional observations from a re-analysis of the deposited data

How the results depend on the processing

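With only the peaks at or above the median score of their replicate, 1776 intervals were shared, the shares of peaks matched were 74.8% of N1 and 76.9% of N2, the Spearman coefficient of scores was 0.775, 19 clusters held 5 or more intervals, 1854 genes carried an interval, and 28.7% of called genes did, against 15.9% of all tested genes. When an overlap had to cover 50% of the shorter peak, 67.2% of N1 and 69.1% of N2 peaks matched. Clusters of 5 or more numbered 7 with a gap of 2 kb and 91 with 10 kb. Counted over the gene body only, 43.2% of called genes carried an interval, against 21.9% of all tested genes, and with 5 kb on either side 6251 genes did, with 62.0% of called genes against 45.1%. From the peaks of 1 replicate alone, clusters numbered 82 to 86 and genes 4630 to 4717, and 57.6 to 58.2% of called genes carried a peak, against 36.6 to 37.6% of all tested genes. Fewer peaks or wider windows change these counts by construction.

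With each RNA library left out in turn, 315 to 497 genes were called in lola[E76] (315 without WT replicate 1 or 2), 593 to 1008 in nerfin-1[159], and 45.9 to 53.7% of the lola[E76] calls carried an interval. The replicate numbers did not pair the libraries: same-numbered libraries deviated together with correlations of -0.056 to 0.023, and 1 of 9 correlated best with its own number. With a replicate block, 431 genes were called in lola[E76], 820 in nerfin-1[159], and 50% of the former carried an interval. Among the lola[E76] calls lost with the block were those of jing, tll and slp2 (edgeR adjusted p = 0.052, 0.060 and 0.062). DESeq2 called 673 and 1048. Of 162 genes named or called in a list, 56 were called in lola[E76], 35 of them under all 13 RNA alternatives, and 0 reversed. The calls of the other 21, among them brk, jing, mira, lin-28, CycB, tll, slp2 and nerfin-1, were lost under at least 1, and the cause was not tested. Depth limits the low genes, since 3 counts equal up to 0.866 CPM.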

Other observations

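Of the 10 highest-scored peaks of each replicate without a counterpart in the other, some lay at genes of known function, and others lay within 1 kb of no annotated gene. In N1, the highest were X:2792479-2793144, with a score of 5.81, and X:2791195-2792339, with 5.26. Both lay within 1 kb of kirre and of w, the eye colour transporter gene, and 3054 and 2384 bases from the nearest N2 peak. The next highest lay at elav, X:523668-525403, with 4.86 and 116 bases from an N2 peak. A further N1 peak lay at dpn, 2R:8231528-8232329, with 4.70 and 140 bases from an N2 peak. In N2, 3R:21827494-21828631 and 3R:25632783-25633158 had the highest scores of those without an N1 peak, 3.99 and 3.94, and neither lay within 1 kb of a gene. A peak at ptc, the Hedgehog receptor gene, came next with 3.93, and among the lower ones of the 10 was a peak at ham, a Prdm-family factor gene of neuronal fate, with 3.64. Of the unmatched peaks, 253 of 1368 in N1 and 264 of 1232 in N2 lay within 1 kb of a peak of the other replicate. Whether these were the same contacts with shifted borders was not tested.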
